A study of Mus musculus with 6 samples.

Results

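The miRNAs described here are miR-486, miR-451a and miR-144, 3 miRNAs best known from red blood cells, measured by small RNA sequencing in the right SN (right SNpc in the sample labels). They are 7 of the 1393 annotated mouse miRNAs of the table, namely mmu-miR-486a-5p, mmu-miR-486a-3p, mmu-miR-486b-5p, mmu-miR-486b-3p, mmu-miR-451a, mmu-miR-144-3p and mmu-miR-144-5p, and each was found by its name. The list was selected on the contrast described below, with earlier results of these data known. The differences of the members between the groups are therefore a description and not a test. The rows of miR-486a and miR-486b hold the same value in every library for the 5p arm, and again for the 3p arm, so the 7 rows are 5 separate measurements. The 2 copies of miR-486 cannot be told apart in these data, and they are written below as miR-486a.

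There were 6 libraries. The hα-syn(A53T) group (n = 3) had received aCSF, the vehicle, above the SN by osmotic pump at 0.25 μL per hour for 4 weeks, and the hα-syn(A53T) + Ang-(1-7) group (n = 3) had received Ang-(1-7) at 1.1 nmol per hour in the same volume for the same time. Both groups carried human α-syn with the A53T mutation. By the methods of the study, male C57BL/6J mice were given an AAV with this gene in the right SNpc at 8 weeks of age, whereas the labels name an overexpressing strain. The model is therefore a local viral one on 1 side of the brain, libraries of mice without the virus were not analysed here, and the sources do not say how many mice went into a library. The spread between libraries may for this reason be technical.

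miRNAs are short RNAs that guide AGO proteins to messenger RNAs through their seed, bases 2 to 8 from the 5′ end. Mir144 and Mir451a are transcribed together under the erythroid factor GATA1, and mouse erythroid cells need them under oxidative stress. miR-451a is the best-known miRNA that matures without Dicer, since AGO2 itself cuts its short hairpin. miR-486 lies in the gene of erythroid ankyrin, Ank1, and is abundant in red cells and also in skeletal and heart muscle. In whole brain tissue, red cells in the vessels are one source of such miRNAs, and in bulk RNA fewer cells of a type and less RNA per cell cannot be told apart.

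The sequences of the Mir144 and Mir451a locus are printed because they show the mature products of this locus and how the 2 hairpins differ. RefSeq (GRCm38.p6) matched 3 of the 7 members by name, while the submitters' notes name mm9, so the positions here are those of RefSeq and were not used with the files. The mature miRNAs follow with the seed in capitals.
miR-451a: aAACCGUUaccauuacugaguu
miR-144-3p: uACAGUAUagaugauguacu
miR-144-5p: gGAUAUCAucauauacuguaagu
miR-101a-3p: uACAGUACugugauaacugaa
Among the 1679 mature names searched in the RefSeq sequence table, which does not cover every miRNA measured, the seeds of miR-451a, miR-144-3p and miR-144-5p each occurred once. miR-101a-3p, picked out after its sequence was compared, has the bases 2 to 7 of miR-144-3p and another base at the end of the seed.

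The hairpins follow with the mature parts in capitals.
Mir144: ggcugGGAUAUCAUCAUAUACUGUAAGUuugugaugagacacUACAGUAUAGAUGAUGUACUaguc
Mir451a: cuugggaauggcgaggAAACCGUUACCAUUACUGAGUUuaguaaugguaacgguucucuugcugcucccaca
Mir144 lies on chromosome 11 from 78073005 to 78073070 and Mir451a from 78073170 to 78073241, both on the plus strand and 99 bases apart. Folded with RNAfold, Mir144 had 27 base pairs and a loop of 6 bases that touched neither mature arm. Mir451a had 30 base pairs and a loop of 4 bases at positions 35 to 38 of the hairpin, and all 4 were part of the mature miR-451a, which runs from position 17 to 38. A 5p to 3p arm ratio was therefore taken for miR-144 but not for miR-451a. For miR-486, whose hairpin was not folded, both arms were measured and their ratio was taken as well. The mature miR-451b is annotated within the span of Mir451a on the minus strand and was not analysed here.

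Reads counted for annotated miRNAs numbered 14796519 to 17088611 a library, with overlapping ranges in the groups. Values are normalized counts, that is read counts divided by a size factor of the library, and 1 read was worth 0.907 to 1.10 normalized counts. The miRNAs with the highest means were miR-9-5p and miR-128-3p, both known from brain, and the widely expressed let-7f-5p. The groups were compared by limma on log2(normalized count + 1) over the 1065 miRNAs that reached 1 normalized count in 3 or more libraries, and a miRNA was called at a Benjamini-Hochberg adjusted p under 0.05. On this scale the change of a miRNA with few reads is understated. All 7 members passed this filter.

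After Ang-(1-7), both arms of miR-486 were lower. The 5p arm fell by 1.97 on the log2 scale and the 3p arm fell by 2.20. miR-451a and both arms of miR-144 were not called, and their groups overlapped. The mean of miR-451a was higher after Ang-(1-7), and both arms of miR-144 had 2 to 46 reads a library. Of the 7 rows, 4 were called lower and 3 were not called, and of the 5 separate measurements 2 were called lower and 3 were not. Over all miRNAs tested, 9.58% were called, 4.04% as lower and 5.54% as higher. The groups did not overlap in 2 of the 5 measurements, against 28.2% of all miRNAs tested. Since the members were chosen by this contrast, nothing is read from these shares.

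**Figure D1:**
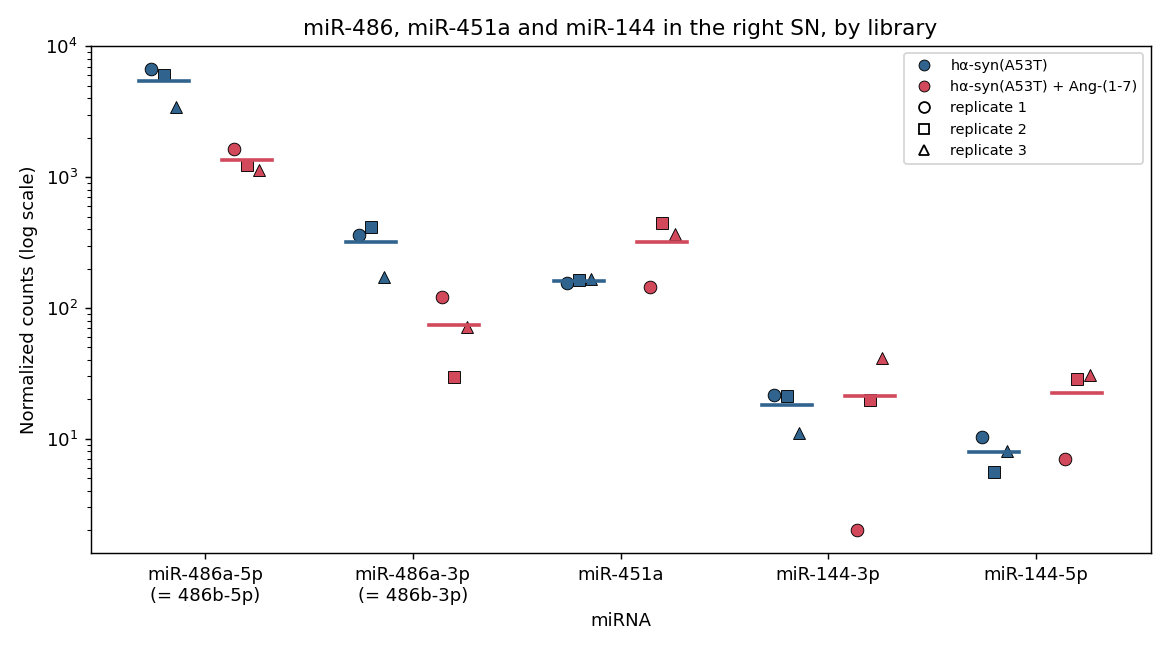
Normalized counts (log scale) of the 5 separate measurements in the 3 hα-syn(A53T) libraries (blue) and the 3 hα-syn(A53T) + Ang-(1-7) libraries (red), with the symbol giving the replicate and the bar the group mean. The groups are apart for both arms of miR-486 and overlap for miR-451a, miR-144-3p and miR-144-5p, where Ang-(1-7) replicate 1 is the lowest red point.

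miR-486a-5p, the arm that AGO proteins mostly hold, lowers FOXO1 in muscle. It stood at 6717, 6051 and 3431 normalized counts in hα-syn(A53T) replicates 1, 2 and 3 and at 1654, 1237 and 1134 in Ang-(1-7) replicates 1, 2 and 3. The lowest hα-syn(A53T) library was thus still above the highest Ang-(1-7) library. The means were 5400 ± 1737 and 1342 ± 275 (SD, n = 3), 4.02-fold apart, with a log2 fold change of -1.97 (standard error 0.29, 95% interval -2.61 to -1.33). Its rank among the annotated miRNAs of a library, counted from the most abundant, was 119 to 169 in the hα-syn(A53T) libraries and 218 to 240 in the Ang-(1-7) libraries. Counting error was small beside this, since 1123 to 6552 reads lay behind each value. Its within-group SD on the log2 scale, 0.42, was unremarkable, as 56.2% of the miRNAs tested had a larger one.

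miR-486a-3p is the less abundant arm of the same hairpin. Its values were 362, 417 and 172 normalized counts in hα-syn(A53T) replicates 1, 2 and 3 and 121, 29.8 and 71.7 in Ang-(1-7) replicates 1, 2 and 3. Here too every Ang-(1-7) library was below every hα-syn(A53T) library, and hα-syn(A53T) replicate 3 was again the lowest of its group. The means were 317 ± 129 and 74.1 ± 45.6 (SD, n = 3), 4.28-fold apart, with a log2 fold change of -2.20 (standard error 0.51, 95% interval -3.33 to -1.06). The spread was wider than in the 5p arm, and Ang-(1-7) replicate 2 rested on 27 reads. This arm was no longer called without Ang-(1-7) replicate 2 (log2 fold change -1.66), without hα-syn(A53T) replicate 1 (-2.05) or without hα-syn(A53T) replicate 2 (-1.95), so that the number of called rows went from 4 to 2 in each case, while the 5p arm was called throughout.

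The arms of miR-486 kept a similar ratio in most libraries. There were 18.6, 14.5 and 19.9 counts of the 5p arm for each count of the 3p arm in hα-syn(A53T) replicates 1, 2 and 3, and 13.7, 41.6 and 15.8 in Ang-(1-7) replicates 1, 2 and 3. Only Ang-(1-7) replicate 2 lay outside the range of 13.7 to 19.9. The mean log2 ratio was 4.13 ± 0.24 in the hα-syn(A53T) group and 4.38 ± 0.87 in the Ang-(1-7) group (SD, n = 3), a difference of 0.25, which turned to -0.25 without Ang-(1-7) replicate 2.

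miR-451a, which in mouse erythroid cells lowers the 14-3-3ζ gene Ywhaz, had a different pattern. It stood at 155, 162 and 167 normalized counts in hα-syn(A53T) replicates 1, 2 and 3 and at 145, 450 and 367 in Ang-(1-7) replicates 1, 2 and 3. The first Ang-(1-7) library lay below every hα-syn(A53T) library, and the other two lay above them all. The means were 161 ± 6.12 and 320 ± 158 (SD, n = 3), with a log2 fold change of 0.83 (standard error 0.39, 95% interval -0.04 to 1.71) that was not called. The SD of the hα-syn(A53T) libraries was below the 12.6 normalized counts that counting error alone gives at 151 to 175 reads, whereas that of the Ang-(1-7) libraries was well above the corresponding 18.0. Without Ang-(1-7) replicate 1 the log2 fold change was 1.33 and miR-451a was called higher. Without Ang-(1-7) replicate 2 it was 0.51 and not called, so the value moved either way with single Ang-(1-7) libraries.

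miR-144-3p, which lowers the oxidative stress regulator NRF2 in red cells, was near the limit of detection in 1 library. It stood at 21.5, 21.3 and 11.1 normalized counts in hα-syn(A53T) replicates 1, 2 and 3 and at 2.00, 19.8 and 41.7 in Ang-(1-7) replicates 1, 2 and 3. The Ang-(1-7) libraries held both the lowest and the highest value. Ang-(1-7) replicate 1 had 2 reads, with an exact 95% Poisson interval of 0.242 to 7.22 normalized counts, and this interval did not reach those of Ang-(1-7) replicate 2 (11.8 to 31.3) or replicate 3 (30.6 to 55.7). Such intervals cover counting error only. The means were 18.0 ± 5.94 and 21.2 ± 19.9 (SD, n = 3), against a log2 fold change of -0.40 (standard error 0.83, 95% interval -2.25 to 1.45), so means and log2 values differed in direction. The log2 fold change became 0.71 without Ang-(1-7) replicate 1, and it was not called in either case. Its within-group SD of 1.45 on the log2 scale was exceeded by only 0.939% of the miRNAs tested.

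miR-144-5p, the opposite arm of this hairpin, stood at 10.3, 5.56 and 8.09 normalized counts in hα-syn(A53T) replicates 1, 2 and 3 and at 6.99, 28.6 and 30.8 in Ang-(1-7) replicates 1, 2 and 3. As with miR-451a, Ang-(1-7) replicate 1 was at the level of the hα-syn(A53T) libraries and the other two were above them. The means were 7.97 ± 2.35 and 22.2 ± 13.2 (SD, n = 3), with a log2 fold change of 1.16 (standard error 0.56, 95% interval -0.09 to 2.41) that was not called. Between 6 and 34 reads lay behind each value. Without Ang-(1-7) replicate 1 the log2 fold change was 1.81, and the miRNA was still not called.

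**Figure D2:**
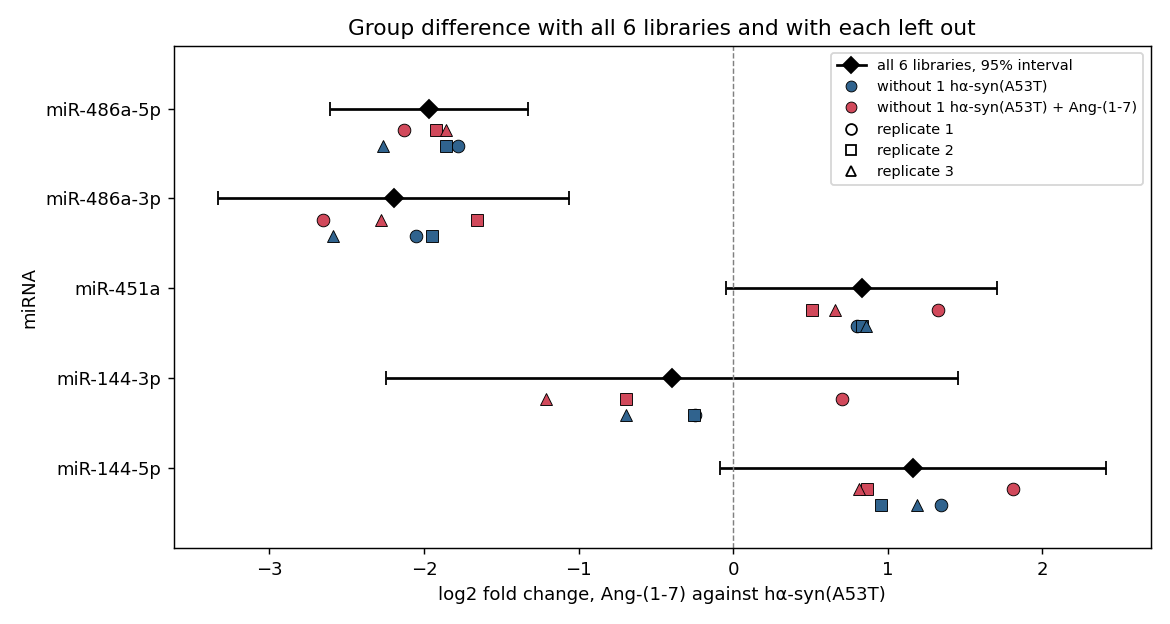
log2 fold change of Ang-(1-7) against hα-syn(A53T) for the 5 measurements from limma, with the 95% interval for all 6 libraries (black) and the value without each library in turn (blue, a hα-syn(A53T) library left out; red, an Ang-(1-7) library left out; the symbol gives the replicate). Both arms of miR-486 stay below 0 throughout, while miR-144-3p moves from -1.21 to 0.71 and miR-451a from 0.51 to 1.33.

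The 3 products of the Mir144 and Mir451a locus shared a low value in Ang-(1-7) replicate 1, in which both arms of miR-486 were the highest of their group. Summed over the locus, the hα-syn(A53T) libraries were nearly equal at 187, 189 and 186 normalized counts in replicates 1, 2 and 3. The Ang-(1-7) libraries stood at 154, 498 and 439, with the first below and the others above that level. The summed miR-486, each arm taken once, was 7079, 6468 and 3603 in the hα-syn(A53T) replicates and 1775, 1267 and 1206 in the Ang-(1-7) replicates. The locus therefore made up 2.57% to 4.91% of the 5 measurements in the hα-syn(A53T) libraries and 7.98%, 28.2% and 26.7% in Ang-(1-7) replicates 1, 2 and 3.

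Taken within each library, where the size factor cancels, miR-486a-5p stood at 43.4, 37.3 and 20.6 counts for each count of miR-451a in hα-syn(A53T) replicates 1, 2 and 3. The same ratio was 11.4, 2.75 and 3.09 in Ang-(1-7) replicates 1, 2 and 3. The groups did not overlap, and Ang-(1-7) replicate 1 was the highest of its group. The mean log2 ratio was 5.01 ± 0.57 in the hα-syn(A53T) group and 2.20 ± 1.14 in the Ang-(1-7) group (SD, n = 3), a difference of -2.81, or 6.99-fold. It ran from -3.46 to -2.44 when each library was left out.

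The ratio of miR-144-5p to miR-144-3p was below 1 in every hα-syn(A53T) library, at 0.476, 0.261 and 0.727 in replicates 1, 2 and 3. It was 3.50, 1.44 and 0.739 in Ang-(1-7) replicates 1, 2 and 3, so the closest libraries of the groups, both numbered 3, were nearly equal. The mean log2 ratio was -1.16 ± 0.74 and 0.63 ± 1.13 (SD, n = 3). The highest ratio came from 7 and 2 reads. The ratio of miR-451a to miR-144-3p was 7.19, 7.61 and 15.0 in hα-syn(A53T) replicates 1, 2 and 3 and 72.5, 22.7 and 8.78 in Ang-(1-7) replicates 1, 2 and 3. Its groups overlapped, and the Ang-(1-7) libraries spread widely, with 2 reads of miR-144-3p behind the highest ratio. The ratio of miR-451a to miR-144-5p varied less, at 15.1, 29.2 and 20.6 in hα-syn(A53T) replicates 1, 2 and 3 and 20.7, 15.7 and 11.9 in Ang-(1-7) replicates 1, 2 and 3, and its groups overlapped.

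**Figure D3:**
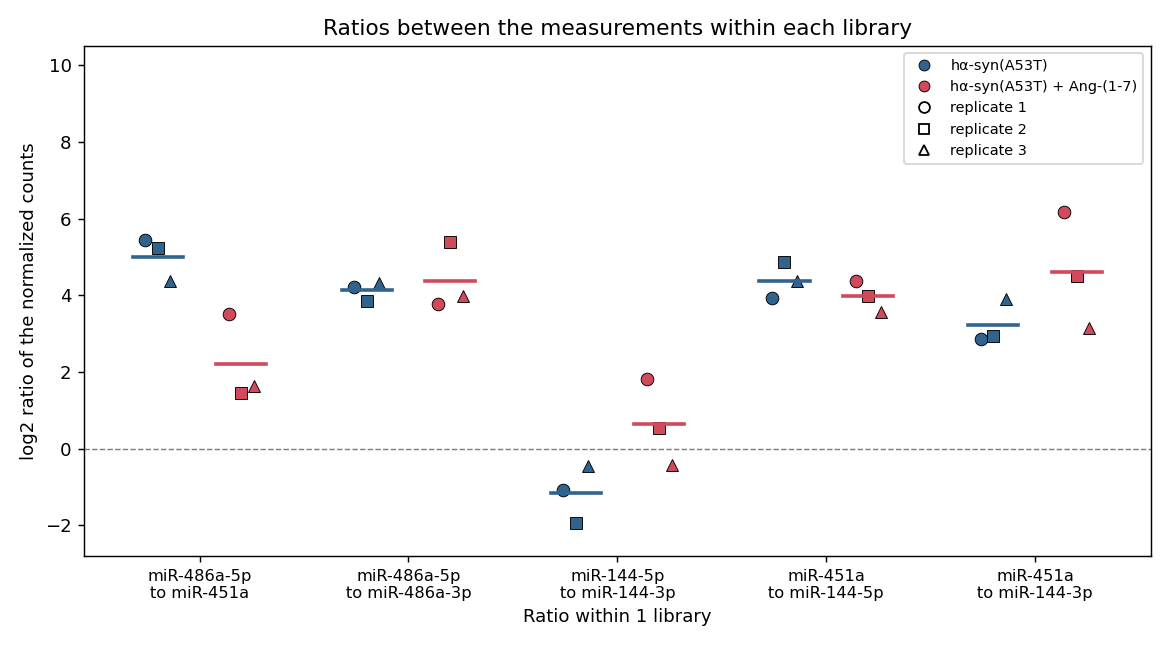
log2 ratio of the normalized counts of paired measurements within each library (blue, hα-syn(A53T); red, hα-syn(A53T) + Ang-(1-7); the symbol gives the replicate, the bar the mean of 3 log2 ratios). The ratio of miR-486a-5p to miR-451a is 4.36 to 5.44 in blue and 1.46 to 3.51 in red, while the arm ratio of miR-486 overlaps between the groups.

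The low values of Ang-(1-7) replicate 1 are set here beside base composition. The mature miR-451a, miR-144-3p and miR-144-5p had a GC content of 36.4%, 30% and 30.4%. Over 88 other miRNAs with a GC content of 30% to 40% and a mean of at least 20 normalized counts, the median log2 difference of Ang-(1-7) replicate 2 from replicate 1 was 0.35 and that of replicate 3 was 0.01. Of these 88, 39.8% were lowest among the Ang-(1-7) libraries in replicate 1, beside 28.7% of all 621 miRNAs with such a mean. For miR-451a the differences were 1.63 and 1.33, for miR-144-3p 2.80 and 3.83, and for miR-144-5p 1.89 and 1.99. The part of base composition in these values was not tested.

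The miRNAs whose log2 values were most like those of miR-486a-5p over the 6 libraries, among 442 with a mean of at least 100 normalized counts, were miR-484 (Pearson's r = 0.99), miR-181a-2-3p (0.98), miR-133b-3p (0.98) and miR-192-5p (0.98). These are descriptions over 6 libraries that share the difference between the groups. miR-484 stood at 8779 ± 2436 normalized counts in the hα-syn(A53T) group and 3972 ± 558 in the Ang-(1-7) group (SD, n = 3), and like miR-486 it was lowest in replicate 3 of the hα-syn(A53T) libraries and highest in replicate 1 of the Ang-(1-7) libraries. miR-484, miR-133b-3p and miR-192-5p were called lower, and miR-181a-2-3p, with a log2 fold change of -0.22, was not called. For miR-451a the most alike were miR-34b-5p (0.91), miR-322-5p (0.88), miR-19a-3p (0.87) and miR-148b-3p (0.86), none of them called by limma (log2 fold changes of 0.26 to 0.51). Of these, miR-322-5p stood at 107, 296 and 152 normalized counts in Ang-(1-7) replicates 1, 2 and 3, with replicate 1 the lowest of that group. Since the miRNAs of both sets were picked for their likeness over these libraries, a shared order of libraries is no separate finding.

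**Figure D4:**
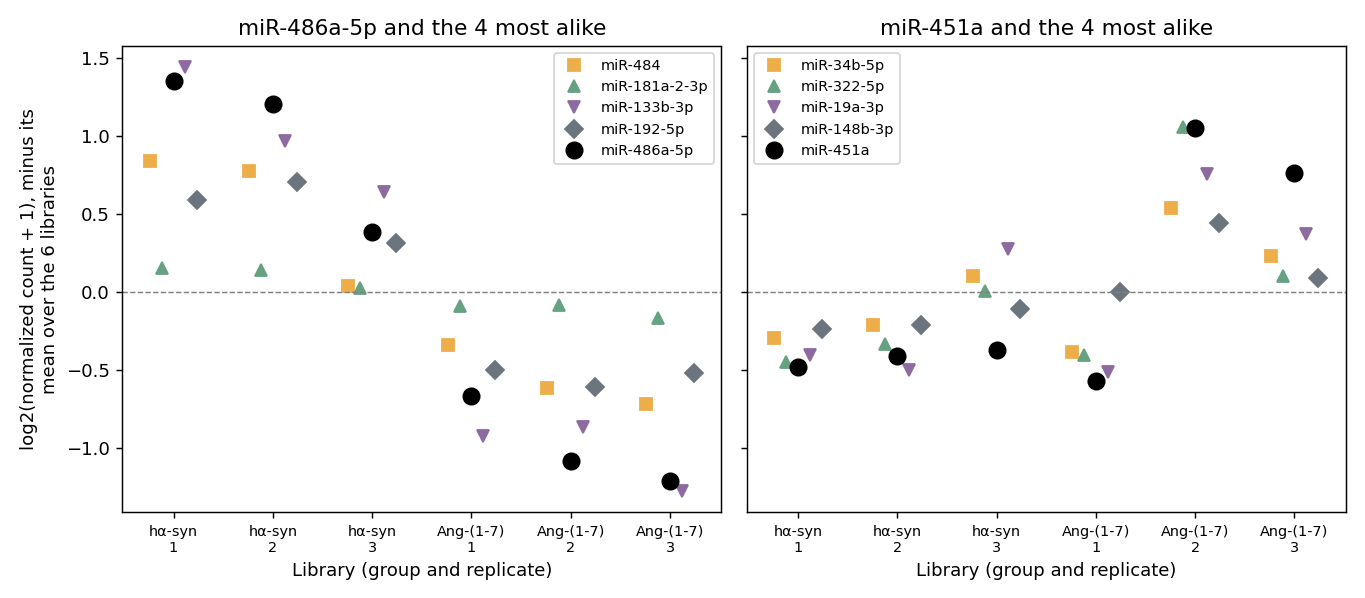
log2(normalized count + 1) less its mean over the 6 libraries, by library, for miR-486a-5p (left, black) and miR-451a (right, black) with the 4 miRNAs most like each. miR-486a-5p and its 4 are above 0 in the 3 hα-syn(A53T) libraries and below 0 in the 3 Ang-(1-7) libraries, while miR-451a is low in Ang-(1-7) replicate 1 and high in replicates 2 and 3.

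The other miRNAs of red cells and of their maturation were set beside all miRNAs tested. Of 13 miRNAs listed for erythroid maturation, 2 were called higher and 11 were not called, with a median log2 fold change of -0.07 beside -0.04 over all miRNAs tested, and the sums of this list overlapped (203201 to 225112 in the hα-syn(A53T) libraries, 204821 to 222402 in the Ang-(1-7) libraries). Those called were miR-221-3p and miR-222-3p, which lower the receptor KIT in erythroid precursors and are also known from neurons and vessels. Over all miRNAs tested, 5.54% were called higher and 4.04% lower. miR-221-3p stood at 11787 ± 2786 normalized counts in the hα-syn(A53T) group and 27927 ± 8714 in the Ang-(1-7) group (SD, n = 3), and miR-222-3p at 8787 ± 1629 and 17343 ± 1916. Of 12 miRNAs listed as abundant in red cells, limma called none at an adjusted p under 0.05 (2 at an unadjusted p under 0.05, and 0 called by voom with 3 at an unadjusted p under 0.05), and the median was -0.17. Of all 1065 miRNAs tested, 247 were at an unadjusted p under 0.05 by limma and 235 by voom, and voom called 101. A log2 fold change below 0 was found in 9 of the 12, beside 555 of all 1065 miRNAs tested. The summed level of this list was 996119 to 1163510 normalized counts in the hα-syn(A53T) libraries and 846810 to 873650 in the Ang-(1-7) libraries, without overlap. The most abundant of these, let-7i-5p and let-7a-5p, are expressed in most tissues and do not mark red cells. miR-16-5p, held by both lists, stood at 15196, 18683 and 23338 normalized counts in hα-syn(A53T) replicates 1, 2 and 3 and at 7675, 12425 and 13642 in Ang-(1-7) replicates 1, 2 and 3. Its groups did not overlap, but with a log2 fold change of -0.78 it was not called. The part of red cell RNA in the level of miR-486 was not tested.

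miRNAs listed for striated muscle, where miR-486 is also abundant, were lower beside it. Of 8 listed, 7 were measured and 6 tested, and 4 of the 6 were called lower (miR-1a-3p, miR-133a-3p, miR-133b-3p and miR-206-3p). Over all miRNAs tested, 4.04% were called lower, and the list was written with earlier results of these data known. The sum over the list was 43015 to 86909 normalized counts in the hα-syn(A53T) libraries and 15471 to 22279 in the Ang-(1-7) libraries, with most of it from miR-1a-3p. miR-206-3p, the skeletal muscle miRNA of the list, stood at 10023, 12103 and 8154 normalized counts in hα-syn(A53T) replicates 1, 2 and 3 and at 481, 196 and 303 in Ang-(1-7) replicates 1, 2 and 3. With a log2 fold change of -5.02 it had the most negative value of the list, well beyond that of miR-486. miR-133b-3p, transcribed together with miR-206, stood at 364, 261 and 208 normalized counts in hα-syn(A53T) replicates 1, 2 and 3 and at 69.9, 72.7 and 54.4 in Ang-(1-7) replicates 1, 2 and 3. The introduction of the study cites miR-133b as lowering α-syn and favouring the survival of neurons, so it is not known from muscle alone. The heart and slow muscle miRNAs miR-208b-3p and miR-499-5p, with log2 fold changes of -0.53 and -0.54, were not called, and miR-208b-3p was at 0.999 to 3.08 normalized counts in every library. The part of muscle RNA in the level of miR-486 was not tested.

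Markers of other cells of the blood and the vessels were set beside all 1065 miRNAs tested. Of these 1065, limma called 9.58% and voom 101. At an unadjusted p under 0.05 there were 247 by limma and 235 by voom. None of 7 miRNAs of leukocytes and platelets was called by limma (0 at an unadjusted p under 0.05, and by voom 0 called and 0 at an unadjusted p under 0.05), and their sum was 111500 to 136843 normalized counts in the hα-syn(A53T) libraries and 103415 to 122676 in the Ang-(1-7) libraries. Most of it came from miR-21a-5p and miR-146a-5p, which are not confined to blood, while miR-223-3p, a defining miRNA of myeloid cells and platelets, stood at 27.3 to 51.3 and at 34.5 to 74.9. The sums of the 2 endothelial miRNAs (199929 to 227653, and 198115 to 225918) and of the 4 of smooth muscle and pericytes (187968 to 278952, and 184600 to 263628) overlapped between the groups. None of them was called by limma or by voom, and those at an unadjusted p under 0.05 were 0 by limma in both lists, and by voom 0 of the endothelial and 1 of the smooth muscle list. Of 5 neuron miRNAs, 2 were called higher by limma, miR-138-5p and miR-137-3p, and 1 lower, miR-124-3p. Over all miRNAs tested, 5.54% were called higher and 4.04% lower. Of the 5, 4 were at an unadjusted p under 0.05 by limma, beside 247 of all 1065 miRNAs tested. By voom, 4 were called and 4 were at an unadjusted p under 0.05, beside 101 and 235 of all 1065. The sums of this list overlapped, at 2705120 to 3022250 in the hα-syn(A53T) libraries and 2970330 to 4055770 in the Ang-(1-7) libraries. Most of each sum came from miR-9-5p and miR-128-3p.

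**Figure D5:**
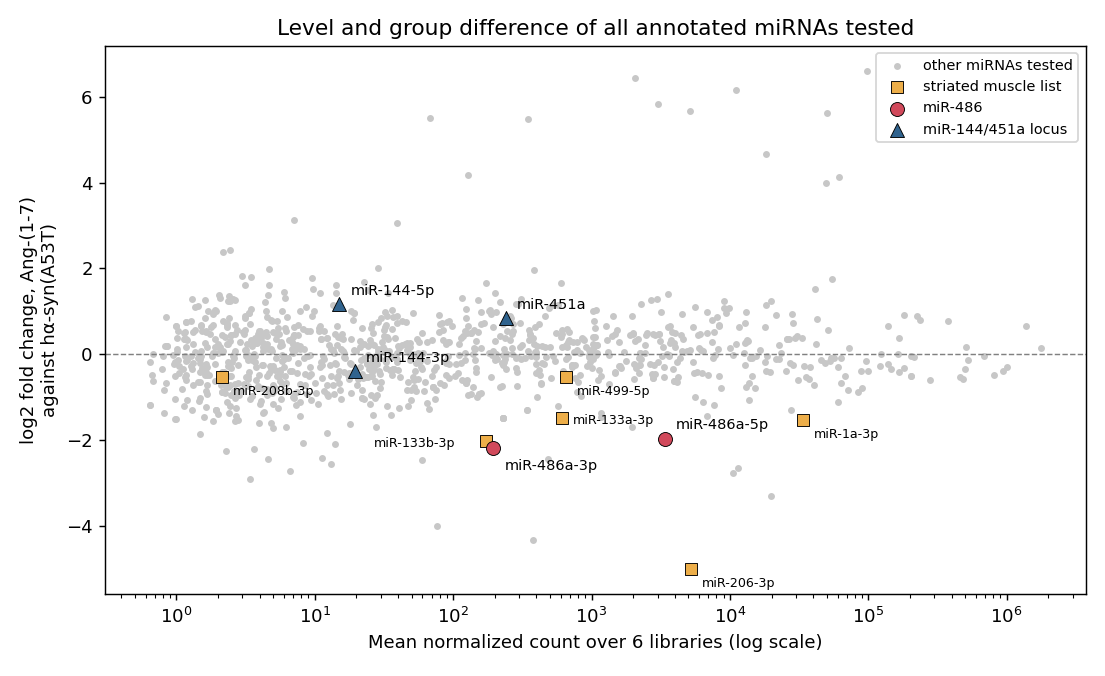
Mean normalized count over 6 libraries (log scale) against the log2 fold change of Ang-(1-7) against hα-syn(A53T), 1 point for each of the 1065 miRNAs tested. Both arms of miR-486 (red) lie at -1.97 and -2.20, and the 4 muscle miRNAs called lower (yellow) lie at -1.49, -1.55, -2.04 and -5.02, while miR-451a and both arms of miR-144 (blue) lie between -0.40 and 1.16.

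miR-10b-5p, whose gene sits among the Hox genes and which marks hindbrain and spinal cord, differed widely between the libraries of each group, at 6887, 48662 and 39970 normalized counts in hα-syn(A53T) replicates 1, 2 and 3 and 1118, 577 and 21338 in Ang-(1-7) replicates 1, 2 and 3. The log2 fold changes of miR-10b-5p and miR-10a-5p were -3.31 and -2.78, in the direction of miR-486, and neither was called. miR-486a-5p stood at 6717, 6051 and 3431 in the same hα-syn(A53T) replicates and at 1654, 1237 and 1134 in the same Ang-(1-7) replicates. In neither group did its order over the libraries match that of miR-10b-5p or the reverse of it. With the log2 levels of both miR-10 family members averaged and added to the model, miR-486a-5p had a log2 fold change of -2.27 and was called, and miR-486a-3p (-2.01) was not. In this fit 22 miRNAs were called in place of 102. With 6 libraries and a covariate whose own mean was lower after Ang-(1-7), it cannot separate the miR-10 level from the treatment. The part of hindbrain tissue in the level of miR-486 was not tested.

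miR-101a-3p, with the bases 2 to 7 of miR-144-3p, was far more abundant than its partner. It stood at 247491 ± 154138 normalized counts in the hα-syn(A53T) group and 159393 ± 42156 in the Ang-(1-7) group (SD, n = 3), and with a log2 fold change of -0.50 it was not called.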

How the data were processed

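Small RNA of the right SN was measured in 6 libraries, and the 6 sample columns of the series table were used. The authors matched reads to the genome with Bowtie 1.2.3 (mm9 in the submitters' notes) and normalized them with DESeq2 1.10.1. In the deposited signal columns each read count had been divided by a size factor, with 1 set of factors for annotated miRNAs and another for predicted loci. Dividing annotated values by the step of their library gave whole reads (100% of values, tolerance 1e-06), the source of the reads and depth quoted. For trimming, miRBase release and counting, including how reads of the miR-486 copies were assigned, the entry is: not given in the sources used here. Columns of the authors' own comparison (means, fold changes, p-values) were not used.

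limma 3.58.1 (R 4.3.3) with a trend was fitted on log2(value + 1) over all 1065 annotated miRNAs passing the filter, and was tested on simulated data. The simulation gave every miRNA the same dispersion, so it does not show how the fit does at the spread of these libraries. Ratios were taken within a library. The members and lists were chosen with earlier results of these data known. Named miRNAs were the members, the 4 most alike, the called or most abundant of each list and the 3 of highest mean. Those of the endothelial and smooth muscle lists were only summed and counted. miRNAs of the same seed as a member were also to be named, and none was found for the 3 members with a sequence. miR-101a-3p, miR-10b-5p, miR-16-5p, miR-208b-3p, miR-223-3p and miR-499-5p were chosen after their sequence or values were seen. Alternatives were other pseudocounts, filters and scalings, the replicate block, identical rows kept once, each library left out and, added after the data were seen, voom, robust limma and the level of miR-10 as a covariate. Hairpins were folded with RNAfold 2.7.2. Tables and figures were made with Python 3.11.15, pandas 2.3.3, numpy 2.4.6 and matplotlib 3.10.9. All pairs of libraries within a group differed beyond counting noise (chi-square divided by its degrees of freedom, 292 to 1804), and each counts as 1 sample.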

Additional observations from a re-analysis of the deposited data

How the results depend on the processing

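miR-486a-5p kept its direction and its call in all 18 alternatives (log2 fold change -2.27 to -1.78). With each library left out, the called members ran from 2 to 5, all called miRNAs from 27 to 111, and the log2 fold changes from -2.65 to -1.66 for miR-486a-3p, from 0.51 to 1.33 for miR-451a, from -1.21 to 0.71 for miR-144-3p and from 0.81 to 1.81 for miR-144-5p. The arm ratio difference of miR-486 ran from -0.25 to 0.55. With identical rows kept once, 2 members were called in place of 4, since the copies were dropped. With the level of miR-10 as a covariate, 22 miRNAs and 2 members were called, miR-486a-3p (-2.01) was not called, and miR-144-3p turned to 0.64. The cause was not tested. Under the other settings the calls of the members stayed as they were, and all called miRNAs ran from 81 to 117.

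Deviations from the group mean had correlations of 0.12, -0.09 and 0.18 between samples of the same replicate number 1, 2 and 3. Between unlike numbers they ran from -0.22 to 0.14. With 3 libraries in a group this cannot settle whether the numbers pair the libraries, and the main fit took them as unpaired. With the replicate block, 112 miRNAs and 4 members were called, and the log2 fold changes were the same. The standard error of miR-486a-5p was then 0.23 in place of 0.29. Under the stricter filter on low values, neither arm of miR-144 could be fitted. The count models planned for raw reads were not run. The whole columns were not taken as raw reads, since annotated and predicted rows had been divided by different size factors. The reads recovered for annotated miRNAs were fitted with voom instead (101 called). Depth limits miR-144 most, with 2 to 46 reads a library.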
